A study of Homo sapiens with 12 samples.

Results

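The transcripts described here are those of 4 carboxypeptidase genes, CPM, CPD, CPE and CPA4, out of 56832 gene symbols counted. They were taken by symbol. CPM, the gene of carboxypeptidase M, was chosen by its measured counts, which rose from about zero in a single group of libraries (cells with the receptor vector and hormone), so its values in that group are a description and carry no test. The other members were listed by name. All 4 symbols were in the counts, 3 had a count in at least 1 library, and 2 (CPM and CPD) passed the filter on low counts. Levels are counts per 1000000 counts in genes after scaling between libraries, written cpm in lower case; CPM in capitals is always the gene.

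RNA came from SW1736 cells, an established human line from an anaplastic thyroid cancer, a tumour type that has lost most features of thyroid follicles. The cells carried pCDH-TRB, a vector for thyroid hormone receptor beta with stable expression (TRB cells), or the control vector pCDH-EV (EV cells). All cells were kept for 24 h in phenol-red-free medium with charcoal-stripped serum, which removes hormones, and then received 10 nM triiodothyronine (T3, the active thyroid hormone) or its NaOH vehicle for 24 h. Each of the 4 groups, EV with vehicle, EV with T3, TRB with vehicle and TRB with T3, had 3 libraries. The promoter of the vector, and whether a line was a clone or a pool, are not given in the sources used here. Nothing says that replicates came from separate cultures, so p-values measure the spread between these libraries, which may be technical.

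Carboxypeptidases remove amino acids from the carboxyl end of proteins and peptides. Carboxypeptidase M sits on the outside of the plasma membrane on a lipid anchor and takes off a final arginine or lysine, for example from bradykinin, which turns it into a ligand of the B1 kinin receptor. Carboxypeptidase D does the same kind of trimming in the trans-Golgi network, and carboxypeptidase E in the secretory granules of endocrine and nerve cells. Carboxypeptidase A4 is secreted and prefers hydrophobic residues. T3 acts through nuclear receptors that bind DNA at copies of the motif AGGTCA, classically a spaced pair.

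In GENCODE release 29 on GRCh38, the build named hg38 in the submitters' processing notes, CPM lies on the minus strand of chromosome 12 from 68842197 to 68971570. CPD lies on the plus strand of chromosome 17 from 30378905 to 30469989, CPE on the plus strand of chromosome 4 from 165361194 to 165498320, and CPA4 on the plus strand of chromosome 7 from 130293134 to 130324180. The end of CPM overlaps that of MDM2, the gene of the main p53 ubiquitin ligase, which runs on the opposite strand. The spans share 8490 bases, and 133 of the 7535 exon bases of CPM (1.765%) lie within exons of MDM2. Counting by strand is not stated, so reads of that stretch cannot be assigned with certainty.

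The sequences before the first start of CPM and of CPD are shown because CPM ran from near zero to a high level across the groups while CPD was abundant in all of them. They come from RefSeq (GRCh38.p14), whose table held 3 windows for CPM, 2 for CPD and 1 each for CPE and CPA4. Each sequence shown is the 250 bases before the most upstream start in that table, on the strand of the gene. Copies of AGGTCA or GGGCGG (the GC box) on either strand are in capitals. This start of CPM lies within the longer GENCODE span of the gene. The CPM stretch is chr12:68933200-68933449 on the minus strand, and the CPD stretch is chr17:30378677-30378926 on the plus strand.
CPM: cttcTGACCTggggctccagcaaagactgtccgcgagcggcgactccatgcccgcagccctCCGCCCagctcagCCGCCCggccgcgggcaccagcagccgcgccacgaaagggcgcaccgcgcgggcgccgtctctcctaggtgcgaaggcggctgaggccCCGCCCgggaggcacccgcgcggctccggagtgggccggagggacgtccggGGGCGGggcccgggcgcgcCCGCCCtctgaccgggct
CPD: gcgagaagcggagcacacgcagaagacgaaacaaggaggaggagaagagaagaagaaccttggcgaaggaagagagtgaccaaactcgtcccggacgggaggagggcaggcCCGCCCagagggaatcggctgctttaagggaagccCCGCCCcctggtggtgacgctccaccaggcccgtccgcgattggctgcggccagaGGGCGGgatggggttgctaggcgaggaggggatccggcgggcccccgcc

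Over the whole window of 300 bases (250 before to 50 after the start) the CPM sequence was 78.67% G or C, with 6 GGGCGG motifs and 1 AGGTCA, seen as TGACCT at the far end. The CPD window was 69% G or C, with 4 GGGCGG motifs and 0 AGGTCA. At the later starts, the CPM windows held 0 AGGTCA, with 6 and 0 GGGCGG, and the CPD window held neither motif. The CPE window held neither motif, and the CPA4 window held 1 AGGTCA. Of 35116 windows of that length, 13.83% held AGGTCA and 44.95% held GGGCGG on either strand. The spaced pair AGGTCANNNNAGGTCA was in 7 windows (0.01993%) and in none of the members' windows. These are matches of letters in a short window and not binding sites.

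Counts within genes ran from 3819306 to 13086717 per library. THRB, the gene of the receptor on the vector, ranged over 12.3 to 18.3 cpm in EV cells, and each TRB library lay above each EV library. The TRB cells held 79.8 to 80.4 cpm of THRB with vehicle and 190.3 to 321.9 with T3, a rise of 1.75 (log2; SE 0.222, edgeR adjusted p 0.000434) that also passed on omitting replicate 2 (edgeR adjusted p 2.1e-07). Receptor transcript thus also differed between the TRB groups, and its part in the T3 responses below was not tested. One library, TRB with T3 replicate 2, stood apart. The biological coefficient of variation was 0.617 in its group and 0.0577 without it, and across genes its difference from replicates 1 and 3 fell with GC content (Spearman's rho -0.89). Its reads favoured transcripts low in G and C, as those of CPM (42.12%) and CPD (40.67%) are. For CPM, CPD and CPE the changes that involve this library are given with and without it. The labelled cell type was read from marker genes. Keratin and EPCAM transcripts of epithelial cells summed to 1840 cpm or more in every library. Of the thyroid markers, TSHR and FOXE1 had no count in any library.

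CPM was nearly silent in 3 of the groups and high in the fourth. The libraries of TRB with vehicle held 1, 1 and 0 counts of CPM, and those of EV with vehicle held 2, 7 and 2. EV with T3 held 19, 26 and 5 counts of CPM, and TRB with T3 held 1436, 1236 and 836. Scaled by library, CPM reached 107.8, 222.3 and 104.4 cpm in TRB with T3 and no more than 2.93 in any of the other 9 libraries. No library of another group reached the range of TRB with T3.

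**Figure D1:**
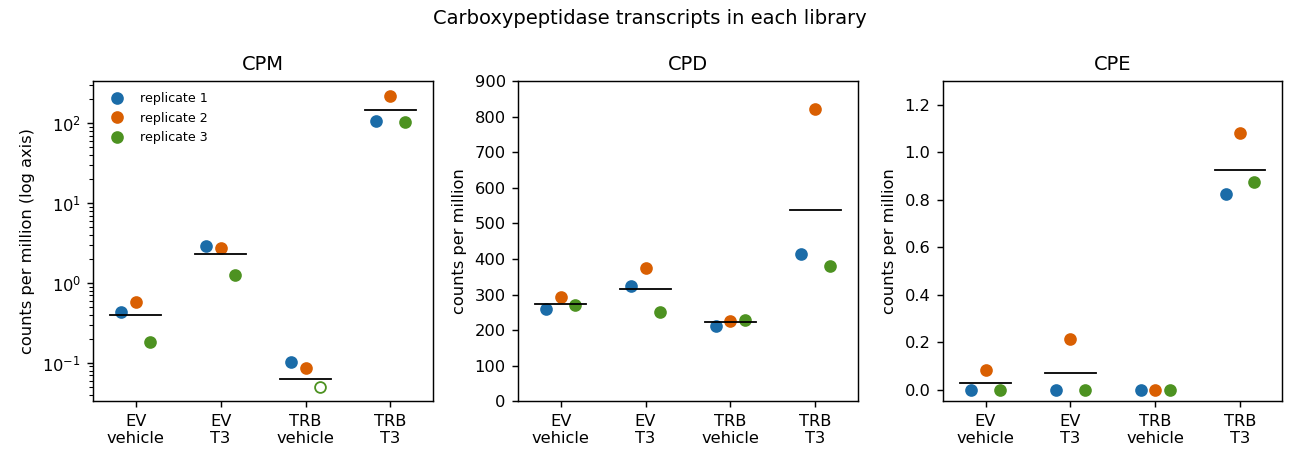
Levels of CPM (log axis; the open point marks a library with no count, drawn at 0.05), CPD and CPE in cpm, with 1 point per library coloured by replicate and a line at the group mean. CPM spans 0 to 222.3, CPD 211.8 to 821.0 and CPE 0 to 1.08, and replicate 2 of TRB with T3 is the highest library in each panel.

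The mean CPM level in TRB with T3 was 144.8 ± 67.1 cpm (SD, n = 3). All libraries of TRB with vehicle were at or under 3 counts, so the fold between these groups is a lower bound. Computed against 3 counts in each of those libraries, CPM was at least 533-fold higher with T3, and at least 390-fold higher without TRB with T3 replicate 2. Such floors cover counting error only. Against EV with T3 (2.32 ± 0.914 cpm, n = 3) the ratio of the group means was 62.6, and 45.8 without that replicate. These figures restate how CPM was picked. In bulk RNA, more cells with the transcript and more transcript per cell cannot be told apart. Among the 14431 genes tested, 87.3% had a lower mean than CPM in TRB with T3, 15.2% did in EV with T3, 0.735% in EV with vehicle and 0.194% in TRB with vehicle.

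A pair of comparisons left out the group that CPM was picked for, although its libraries enter the shared estimate of spread. TRB with vehicle was the near-zero start of that rise. The comparison of the vectors in vehicle is thus not independent of the choice of CPM. In EV cells, which have only their own receptors, CPM measured 0.434, 0.572 and 0.184 cpm with vehicle and 2.93, 2.75 and 1.27 with T3. The groups did not overlap, as was so for 26.9% of genes tested. The means were 0.397 ± 0.197 and 2.32 ± 0.914 (SD, n = 3), a ratio of 5.84. The fitted change was 2.56 on the log2 scale (SE 0.565), with an unadjusted p of 0.000922 and an adjusted p of 0.141 in edgeR's quasi-likelihood test on 12 libraries (Benjamini-Hochberg over all genes tested, threshold 0.05), where 0.229% of genes passed. The CPM change missed the threshold. Omitting TRB with T3 replicate 2, a library outside this comparison that enters the shared estimate of spread, gave 2.62 (SE 0.417, edgeR adjusted p 0.0034), and 7.33% of genes passed. CPM also passed for T3 in EV cells with DESeq2 (adjusted p 0.00955), with the compared groups alone in edgeR (adjusted p 0.0393) and in edgeR with GC offsets, which remove each library's trend with GC content (adjusted p 0.00107). In the 11 edgeR fits that left out one of the other libraries the adjusted p ran from 0.126 to 0.546. An exact two-sided permutation test of the levels gave p = 0.1, the smallest that 3 against 3 libraries allow.

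In vehicle, CPM was at 0.102, 0.0862 and 0 cpm in TRB cells, below each of the EV libraries. The totals were 2 counts over 3 TRB libraries and 11 over 3 EV libraries. The groups did not overlap, as in 36.3% of genes. The fitted change was -2.47 (SE 0.887, adjusted p 1 in edgeR, unadjusted p 0.0183), and 0.0208% of genes passed in this comparison. It did not pass in any of the 19 other settings that gave a value, where the lowest adjusted p was 0.16. At these counts the ratio is poorly measured. The order of the CPM levels was thus TRB with T3, EV with T3, EV with vehicle and TRB with vehicle. The lowest neighbours in that order, EV and TRB with vehicle, did not differ past the threshold, nor did EV with T3 and EV with vehicle in the fit of 12 libraries.

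**Figure D2:**
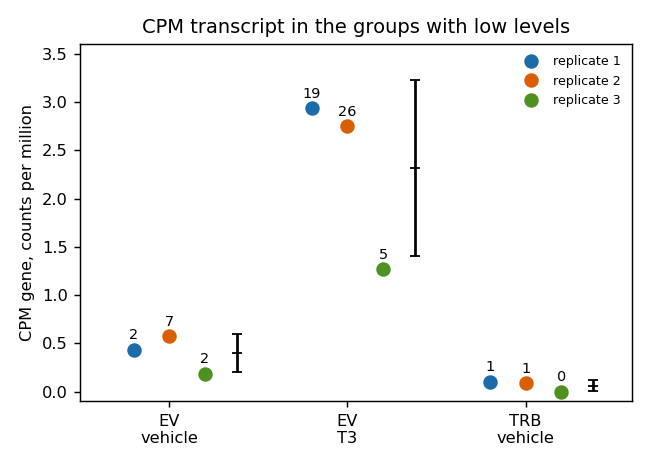
CPM in cpm in the groups other than TRB with T3, with the raw count printed above each library's point and the group mean ± SD drawn at its right. EV with T3 lies between 1.27 and 2.93, EV with vehicle between 0.184 and 0.572, and TRB with vehicle at or under 0.102.

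CPD, a membrane-bound enzyme of the trans-Golgi network, was abundant in every library. The EV libraries held 260.0, 292.0 and 271.0 cpm with vehicle and 324.4, 374.2 and 249.8 with T3. The TRB libraries held 211.8, 225.5 and 229.1 cpm with vehicle and 414.2, 821.0 and 381.1 with T3. All libraries of TRB with T3 lay above those of the other groups, and replicate 2 lay far above replicates 1 and 3. Groups did not overlap in 40.8% of all genes for T3 in TRB cells and in 26.3% for TRB against EV with T3.

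With T3, CPD rose in TRB cells by 1.28 (log2; SE 0.277, edgeR adjusted p 0.0106), from 222.1 ± 9.13 to 538.8 ± 245.0 cpm (SD, n = 3). In that comparison 14.7% of all genes passed, and 8.54% of all genes rose. The rise was 0.89 (SE 0.146, edgeR adjusted p 0.00048) without TRB with T3 replicate 2 and 0.79 (SE 0.0678, adjusted p 2.49e-06) with GC offsets on 12 libraries. Each of the 12 fits with 1 library omitted kept it past the threshold (highest adjusted p 0.0402), and the fit of the compared groups alone did not (adjusted p 0.0997). In EV cells the change was 0.20 (SE 0.273, adjusted p 0.94) and the groups overlapped. It passed there with GC offsets (0.48, SE 0.0679, edgeR adjusted p 0.00175).

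TRB and EV cells with T3 differed by 0.77 in CPD (SE 0.274, edgeR adjusted p 0.125), where 6.68% of genes passed. The difference was 0.39 without TRB with T3 replicate 2 (SE 0.147, adjusted p 0.0884) and 0.22 with GC offsets, which passed (SE 0.0676, adjusted p 0.0289). In vehicle the TRB libraries were all below the EV libraries in CPD, by 0.30 (SE 0.273, adjusted p 1). Groups did not overlap there in 36.3% of genes tested. The CPD decrease in vehicle passed in 1 of 21 other settings, the fit of the 6 vehicle libraries alone (-0.28, SE 0.0721, edgeR adjusted p 0.0351). The difference of the CPD response between TRB and EV cells was 1.07 (SE 0.387, adjusted p 0.183), where 2.59% of genes passed. It was 0.68 (SE 0.198) without TRB with T3 replicate 2 and passed there (edgeR adjusted p 0.0371), and 0.31 (adjusted p 0.0398) with GC offsets.

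Per kilobase of exon, which makes the levels of different genes comparable, CPM in TRB with T3 stood at 14.3, 29.5 and 13.9 cpm per kb (mean 19.2 ± 8.91, SD, n = 3) and CPD at 33.1, 65.5 and 30.4 (mean 43.0 ± 19.5). Replicate 2 was the highest library for both genes. In EV with vehicle CPM stood at 0.0527 ± 0.0261 and CPD at 21.9 ± 1.3 on the same scale. In TRB with vehicle CPD stood at 17.7 ± 0.729 cpm per kb and CPM at 0.00831 ± 0.00727. Per length, CPM was below CPD in each group.

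CPE, which finishes peptide hormones in secretory granules, was barely counted. The libraries of TRB with T3 held 11, 6 and 7 counts of CPE, those of TRB with vehicle 0, 0 and 0, those of EV with vehicle 0, 1 and 0, and those of EV with T3 0, 2 and 0. In cpm the CPE level was 0.826, 1.08 and 0.874 in TRB with T3 and no more than 0.211 in any other library. All libraries of TRB with T3 lay above all others. Among the 14431 genes tested, groups did not overlap in 40.8% for T3 in TRB cells and in 26.3% for TRB against EV with T3. Against 3 counts per library in TRB with vehicle, CPE was at least 3.41-fold higher with T3, and at least 1.81-fold higher than in EV with T3 (3.13-fold and 1.66-fold without TRB with T3 replicate 2). CPE fell under the filter, so it has no value among the 14431 genes. With no filter on low counts, edgeR on 30412 genes gave CPE an adjusted p of 0.00303 for T3 in TRB cells. It gave 0.107 for the vectors compared under T3 and 0.428 for the difference of the T3 response. The call for T3 in TRB cells rests on 24 counts against 0. The share of the 30412 genes that passed is not given here, so the call cannot be set against it. An exact two-sided permutation test gave p = 0.1 for either comparison, the smallest possible. For T3 in EV cells, and for the vectors compared in vehicle, both groups were at or under 3 counts, and no fold is given.

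CPA4 had a count of 0 in each of the 12 libraries, which over all of them allows up to 0.0279 cpm. Its level could not be compared between groups.

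The wider set of carboxypeptidases was read from a list of 39 genes that also holds partner subunits and inhibitors. No count was found for 12 of them, among them the pancreatic enzymes CPA1 and CPB1 and both subunits of the plasma enzyme carboxypeptidase N (CPN1 and CPN2). The filter was passed by 16, CPM included. Of the 15 others, 3 rose with T3 in TRB cells (edgeR) and 0 fell (7 had an unadjusted p under 0.05; DESeq2 and limma-voom each called 4), where 8.54% of all genes rose and 6.2% fell. The median change of these 15 was -0.06, against 0.01 over all genes tested. Those 3 were CPD, CPA6 and VASH2. Without TRB with T3 replicate 2, 4 rose (CPD, CPA6, VASH2 and the lysosomal CTSA) and 2 fell (AGTPBP1, a deglutamylase of tubulin, and SVBP, the partner of the vasohibins), where 18.1% of genes rose and 15.2% fell.

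VASH2, a vasohibin that removes the last tyrosine of alpha-tubulin, measured 14.2, 23.0 and 11.9 cpm in TRB with T3 and 5.59, 7.07 and 6.8 in TRB with vehicle. The groups did not overlap, as in 40.8% of genes tested for T3 in TRB cells. The rise was 1.32 (SE 0.304, edgeR adjusted p 0.014), and under T3 VASH2 was 1.20 higher in TRB cells than in EV cells (SE 0.308, adjusted p 0.0425). In EV cells VASH2 changed by -0.01 (adjusted p 0.995). Without TRB with T3 replicate 2 the rise was 1.06 (SE 0.22, edgeR adjusted p 0.00252) and the difference between the vectors under T3 was 0.90 (SE 0.23, adjusted p 0.0147). Of the 12 fits with 1 library omitted, the rise passed in 11, all but that without TRB with vehicle replicate 1 (adjusted p 0.0586). The difference from EV cells under T3 passed in 3 of those 12, each without a library of TRB with T3, and the highest adjusted p of the others was 0.129.

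CPA6, a secreted enzyme bound to the extracellular matrix, was low, with 36, 21 and 11 counts in TRB with T3 and 13, 13 and 10 in TRB with vehicle. Its levels were 2.7, 3.78 and 1.37 cpm with T3 and 1.32, 1.12 and 0.839 with vehicle, and replicate 3 with T3 was close to the highest vehicle library. The rise of CPA6 was 1.23 (SE 0.356, edgeR adjusted p 0.0412) and passed in 8 of 20 other settings. Among the 12 fits with 1 library omitted it passed in 3 (without EV with vehicle replicate 1, TRB with T3 replicate 2 or TRB with T3 replicate 3; highest adjusted p of the others 0.148).

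In EV cells 0 of the 16 tested genes of the list passed for T3 in edgeR, where 0.229% of all genes did. Of the 16, 1 had an unadjusted p under 0.05, and 1 passed with DESeq2 and 0 with limma-voom. CPM and AGTPBP1 passed without TRB with T3 replicate 2, where 7.33% of all genes did. Between the vectors in vehicle 0 passed in edgeR, where 0.0208% of all genes did. There 1 had an unadjusted p under 0.05, and 0 passed with DESeq2 or limma-voom. Between the vectors with T3, 1 of 15 passed (VASH2), where 6.68% of all genes did, and 0 passed in each of the 9 fits that omitted a library of another group than TRB with T3. For the difference of the T3 response 0 of 15 passed in edgeR, where 2.59% of all genes did. Of these, 2 had an unadjusted p under 0.05, and 0 of the 15 passed with DESeq2 or limma-voom. CPD and VASH2 passed it without TRB with T3 replicate 2, where 15.2% of all genes did. Of the inhibitors, LXN (latexin) changed by 0.69 with T3 in TRB cells (edgeR adjusted p 0.224) and RARRES1 by -1.52 (adjusted p 0.12). Omitting TRB with T3 replicate 2 gave 0.22 for LXN (edgeR adjusted p 0.536) and -1.83 for RARRES1 (adjusted p 0.0529).

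**Figure D3:**
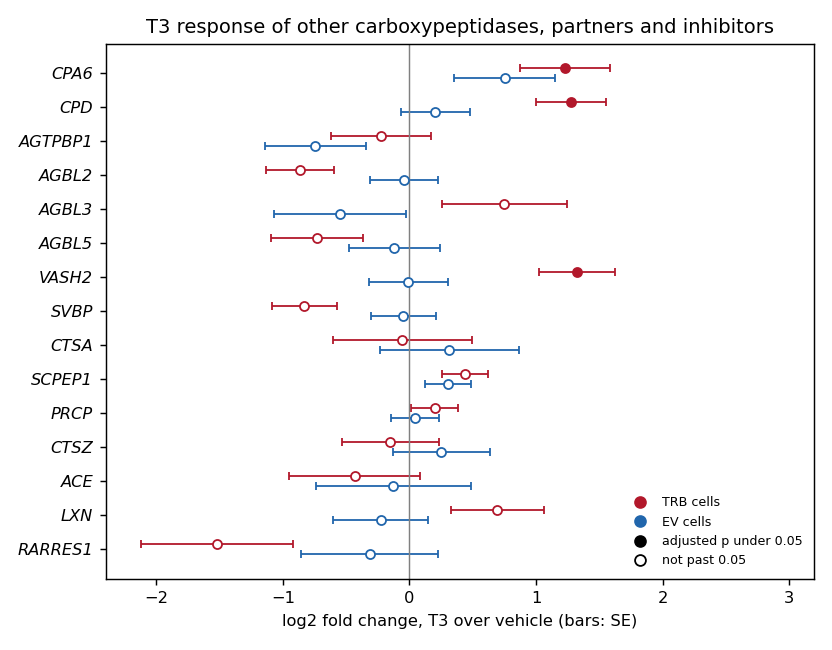
Log2 change with T3 (point) and its SE (bar) in TRB cells (red) and EV cells (blue) for the 15 tested genes of the carboxypeptidase list other than CPM, from the fit of 12 libraries. Filled points passed an edgeR adjusted p of 0.05; these are CPD, CPA6 and VASH2 in TRB cells, and none in EV cells.

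Carboxypeptidase M acts on kinins and on epidermal growth factor. The receptor of its kinin product, BDKRB1, had no count in any library, and BDKRB2, the receptor of intact bradykinin, had 0 to 2. EGFR, the receptor of epidermal growth factor, stood at 226.2 ± 4.27 cpm in TRB with vehicle and 256.8 ± 25.2 with T3 (SD, n = 3), and its change of 0.18 did not pass (SE 0.134, edgeR adjusted p 0.367). Of the 15 genes of kinin formation, breakdown and signalling listed, 8 were tested, and 2 rose and 0 fell with T3 in TRB cells, where 8.54% of all genes rose and 6.2% fell. Those 2 were DPP4 and ANPEP, both surface peptidases that cut from the amino end. Their list had a median change of 0.05, against 0.01 over all genes. Omitting TRB with T3 replicate 2, 3 rose (ECE1, a peptidase that cleaves bradykinin, in addition) and 1 fell (F12, coagulation factor XII), where 18.1% of genes rose and 15.2% fell.

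DPP4 measured 405.3, 921.8 and 400.8 cpm in TRB with T3 and 140.1, 151.0 and 131.0 in TRB with vehicle. These groups did not overlap, as in 40.8% of genes tested. DPP4 rose by 2.03 (SE 0.321, edgeR adjusted p 0.00179), and by 1.57 without TRB with T3 replicate 2. Under T3, DPP4 was 1.49 higher in TRB cells than in EV cells (SE 0.316, adjusted p 0.0187; 0.0749 and 0.0757 without EV with T3 replicate 1 or 3). Omitting TRB with T3 replicate 2, that difference was 1.03 (edgeR adjusted p 0.000889). In EV cells DPP4 changed by 0.11 (adjusted p 0.946). ANPEP had few counts. It rose by 1.72 in TRB cells (SE 0.489, edgeR adjusted p 0.0383), passed in 2 of the 12 fits with 1 library omitted (without EV with T3 replicate 3 or TRB with T3 replicate 2; highest adjusted p of the others 0.148), and stood at 0.72 cpm in TRB with T3 replicate 2 against 2.55 and 3.12 in replicates 1 and 3. In EV cells ANPEP changed by 2.06 (SE 0.551, adjusted p 0.283), and passed there without TRB with T3 replicate 2 (edgeR adjusted p 0.011).

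Carboxypeptidases D and E trim peptides that proprotein convertases have cut. Of 14 genes of peptide hormone maturation, 6 were tested, with a median change of 0.39 with T3 in TRB cells, against 0.01 over all genes. With T3 in EV cells their median change was 0.43, against -0.0003 over all genes. There 0 of the 6 passed in edgeR, where 0.229% of all genes did. In TRB cells FURIN and PCSK5, both convertases, rose and 0 of the 6 fell, where 8.54% of all genes rose and 6.2% fell. Omitting TRB with T3 replicate 2, 4 of the 6 rose (PCSK6 and the amidating enzyme PAM in addition), where 18.1% of genes rose. The convertases of endocrine granules, PCSK1 and PCSK2, and the granule protein CHGA had no count in any library. PCSK5 measured 95.2, 98.6 and 93.9 cpm in TRB with T3 and 43.4, 43.9 and 43.7 in TRB with vehicle. Its libraries agreed closely, replicate 2 included. PCSK5 rose by 1.14 (SE 0.143, edgeR adjusted p 0.000426), under T3 was 1.27 higher in TRB cells than in EV cells (adjusted p 0.000605) and changed by 0.48 in EV cells (adjusted p 0.407, and 0.0162 without TRB with T3 replicate 2). With vehicle PCSK5 was already 0.62 higher in TRB cells than in EV cells (SE 0.143, edgeR unadjusted p 0.00127). That difference did not pass on 12 libraries and passed without TRB with T3 replicate 2. The difference of the PCSK5 response to T3 was 0.65 (SE 0.202, edgeR adjusted p 0.131), and it also passed without that replicate.

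FURIN levels were 460.2 cpm in replicate 1 of TRB with T3, 496.3 in replicate 3 and 35.1 in replicate 2, below the 66.2 to 72.0 of TRB with vehicle. Its rise of 2.26 (SE 0.681, edgeR adjusted p 0.0485) passed in 1 of the 12 fits with 1 library omitted. That was the fit without TRB with T3 replicate 2 (2.84, SE 0.163, adjusted p 5.8e-08); the highest adjusted p of the others was 0.147. In EV cells FURIN changed by 0.70 (edgeR adjusted p 0.935), and by 0.69 without TRB with T3 replicate 2 (adjusted p 0.0211).

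The genes beside CPM on chromosome 12 were also read, because CPM overlaps MDM2. MDM2 held 942, 1325 and 1238 counts in TRB with vehicle, where CPM held 1, 1 and 0. It held 1654, 1999 and 904 in TRB with T3. Whether reads of MDM2 enter the CPM counts was not tested. MDM2 measured 124.1, 359.6 and 112.9 cpm in TRB with T3 and 95.7, 114.2 and 103.9 in TRB with vehicle, so replicate 2 was far above the vehicle libraries, replicate 1 slightly above and replicate 3 within their range. Its change was 0.93 (SE 0.397, edgeR adjusted p 0.146), and 0.23 without that replicate (adjusted p 0.393). CPSF6, on the other side of CPM, changed by 0.19 (adjusted p 0.653), and by -0.34 with GC offsets and -0.17 without TRB with T3 replicate 2, where it did not pass either. Of 8 neighbours tested, 0 passed for T3 in TRB cells in edgeR, DESeq2 or limma-voom, and 1 had an unadjusted p under 0.05. As 14.7% of all genes passed there in edgeR, a count of 0 among 8 says little about the neighbours. Their median change there was 0.25, which became -0.12 on omitting TRB with T3 replicate 2. In EV cells 0 passed and 0 had an unadjusted p under 0.05, where 0.229% of all genes passed in edgeR.

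**Figure D4:**
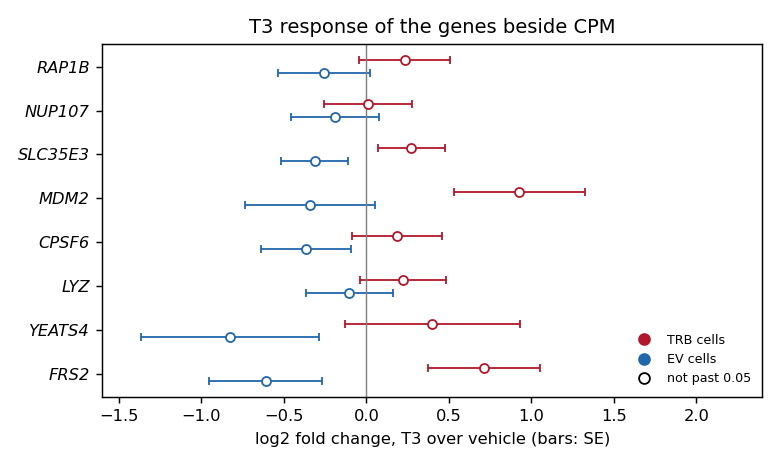
Log2 change with T3 (point) and SE (bar) in TRB cells (red) and EV cells (blue) for 8 genes that neighbour CPM, in their order on the chromosome, from the fit of 12 libraries. Open points did not pass an edgeR adjusted p of 0.05, which holds for all 16 points.

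CPM is known as a marker of maturing macrophages, so macrophage transcripts were summed. Over 8 markers the sum was 0.899 to 1.09 cpm in EV with vehicle, 0.845 to 3.29 in EV with T3, 0.813 to 0.923 in TRB with vehicle and 0.18 to 10.2 in TRB with T3. CD163, MRC1 and AIF1 had no count in any library. Summed over the libraries of a group, CD68 held 10 counts in TRB with vehicle and 2 with T3, and ITGAM 3 and 1. CSF1R held 0 and 5 counts, and PTPRC 3 and 3. None of the 8 exceeded 1 cpm in all libraries of any group, though CD14 did in replicates 1 and 3 of TRB with T3. CD14, a receptor for bacterial lipid, made up most of the sum in TRB with T3, at 9.23 cpm in replicate 1, 9.74 in replicate 3 and 0.18 in replicate 2. CD14 rose by 4.04 with T3 in TRB cells (SE 0.912, edgeR adjusted p 0.013), where 8.54% of all genes rose. Without replicate 2 of TRB with T3 the rise of CD14 was 4.60 (SE 0.334, edgeR adjusted p 4.52e-07), where 18.1% of genes rose. That replicate, whose reads favoured transcripts low in G and C, held 1 count of CD14 and 222.3 cpm of CPM. Any link between CD14 and CPM was not tested.

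The genes whose log2 level followed CPM most closely over the 12 libraries were SLC2A12, a sugar transporter (Pearson r = 0.996), PIK3AP1, an adaptor of phosphoinositide 3-kinase (0.993), and PHKA1, a subunit of phosphorylase kinase (0.992). MAP4K4, a kinase, and GLUL, glutamine synthetase, followed (both 0.989). All share the libraries, and TRB with T3 against the rest sets most of each value. Their own range was narrower than that of CPM. SLC2A12 stood at 6.91 ± 0.306 cpm in TRB cells with vehicle and 62.7 ± 16.7 under T3 (SD, n = 3), and GLUL at 164.3 ± 9.75 and 3038 ± 353. Without TRB with T3 replicate 2, 3 of these 5 stayed among the 5 most like CPM, and with a prior count of 0.5 in place of 2, 2 of them did.

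CPD was most like GAPVD1, an endosomal regulator of RAB5 (Pearson r = 0.994), ADD3, a cytoskeletal adducin (0.993), and ELOVL6, a fatty acid elongase (0.99), then SAMD12 (0.988) and EHBP1 (0.987), over the 12 libraries. ADD3 stood at 197.4 ± 18.1 cpm in TRB cells with vehicle and 772.4 ± 497.6 under T3 (SD, n = 3), a spread wider than that of CPD. Without TRB with T3 replicate 2, 3 of these 5 stayed among the 5 most like CPD.

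**Figure D5:**
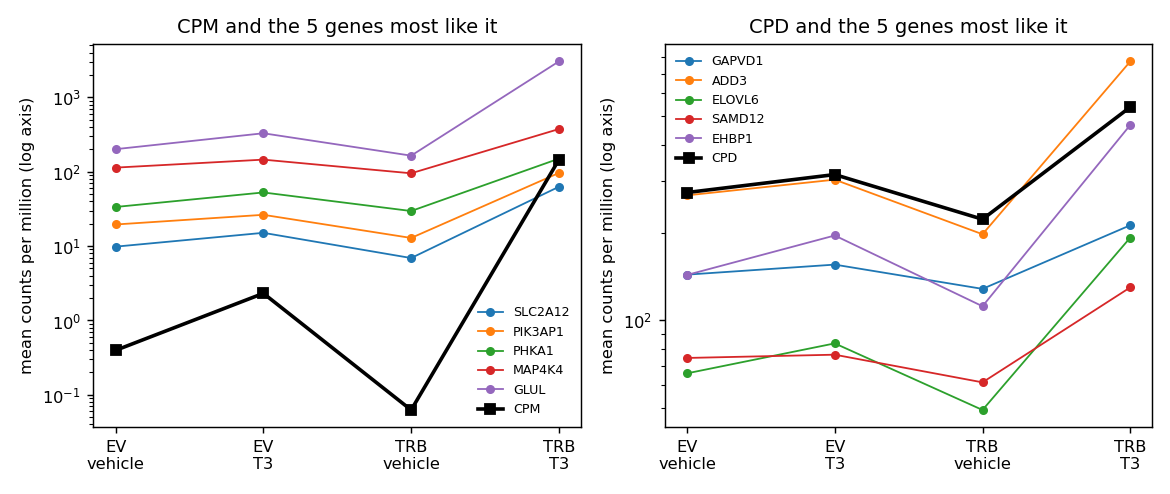
Group means in cpm (log axis) of CPM (left) and CPD (right) in black, with the 5 genes whose log2 level correlates most with each over the 12 libraries. Lines only join the means of one gene; each gene is lowest in TRB with vehicle and highest in TRB with T3, and CPM has the widest range, from 0.0626 to 144.8.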

How the data were processed

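Raw counts for each gene symbol were deposited by the authors, 1 file for each of 12 libraries (56832 symbols). Per the submitters' processing notes, CASAVA 1.7, STAR 2.7, HTSeq 0.10, DESeq2 and the build hg38 were used. Counting options, strand setting and annotation are not given in the sources used here. The 5 closing lines, for reads of no gene, were left out: alignments that were not unique were 19.03% to 91.95% of each file, reads outside genes 2.14% to 24.4%, ambiguous reads 0.258% to 1.81%. The deposited table of normalized values was not used.

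The tests used edgeR 4.0.16 (R 4.3.3). Its filterByExpr function, set to a minimum count of 10 and a minimum total of 15, kept 14431 genes (14825 without TRB with T3 replicate 2). These were scaled by TMM and fitted with a quasi-likelihood model of 4 group means. The 5 contrasts were tested two-sided, with Benjamini-Hochberg adjustment over all genes and a threshold of 0.05. SE is the log2 change over the square root of F. Correlations used log2 cpm with a prior count of 2. Exon lengths and GC content came from GENCODE release 29. GC content was known for 84.06% of genes tested. GC offsets remove a spline trend (5 degrees of freedom) of each library against it. DESeq2 1.42.0 and limma 3.58.1 served as alternatives. The procedure was also run on simulated counts. These held no library with a GC trend, so that run does not bear on TRB with T3 replicate 2.

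Members and lists were chosen with earlier results of these data known. Named genes were the members, listed genes past the threshold in any contrast, BDKRB1, BDKRB2, EGFR, MDM2, CPSF6, and the 5 genes most correlated with each member. Other listed genes were named after their values were seen. Floors are 3 counts per library. Alternatives were another scaling, filter, tool, GC offsets, a replicate block, the compared groups alone, and each library omitted in turn.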

Additional observations from a re-analysis of the deposited data

Results flagged for a closer look

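The T3 response of DPP4, a surface peptidase, differed between the vectors. It was 1.92 larger on the log2 scale in TRB cells (SE 0.441, edgeR interaction test, adjusted p 0.049), with all libraries of TRB with T3 above all of TRB with vehicle and overlapping groups in EV cells. Without TRB with T3 replicate 2 the difference was 1.44 (adjusted p 0.00125). It passed in 3 of the 12 edgeR fits that left out 1 library, with an adjusted p up to 0.129.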

How the results depend on the processing

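Of the 12 fits that left out 1 library, that without TRB with T3 replicate 2 called the most genes in each of the 5 contrasts. Low counts limit CPM outside TRB with T3, CPE, CPA6 and ANPEP. CPE and CPA4 fell under the filter, and CPM has no value with at least 10 counts in every library.

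Leaving out 1 library, the CPM change in EV cells ran from 2.20 to 3.13. The CPD interaction ran from 0.68 to 1.22. The CPM folds ran from 390.5 to 607.4 for T3 in TRB cells and from 45.8 to 72.2 for TRB against EV with T3.

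Changes that passed only under an alternative were CPM for T3 in EV cells with DESeq2 (2.64), the compared groups alone (2.59), GC offsets (2.78), GC offsets on 11 libraries (2.78) and no TRB with T3 replicate 2 (2.62). For CPD they were T3 in EV cells (0.48 with GC offsets on 12 and on 11 libraries), TRB in vehicle with the compared groups alone (-0.28), TRB with T3 (0.22 and 0.25 with GC offsets on 12 and 11) and the interaction (0.31 and 0.34, and 0.68 without TRB with T3 replicate 2). The rise of CPD in TRB cells (1.26) was not past the threshold in a fit of its own groups. CPSF6 turned negative with GC offsets (-0.34), with these on 11 libraries (-0.19) and without TRB with T3 replicate 2 (-0.17), and ranged up to 0.36 leaving out 1 library. The cause was not tested.

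All genes called for T3 in TRB cells numbered 2128 of 14431, and 634 with the compared groups alone. They numbered 5187 with GC offsets, where 12130 genes were fitted, and 6895 with these on 11 libraries. Leaving out 1 library gave 1256 to 4938. For T3 in EV cells there were 33, and 172 with DESeq2, 19 with no filter, 200 with the compared groups alone, 18 with the replicate block, 540 and 2174 with GC offsets on 12 and 11, and 10 to 1087 leaving out 1 library. For TRB in vehicle there were 3, and 8 with DESeq2, 1563 with the compared groups alone, 7 and 128 with GC offsets, and 1 to 11 leaving out 1 library. For TRB with T3 there were 964, and 1905 with DESeq2, 32 with the compared groups alone, 3494 and 5130 with GC offsets, and 414 to 2918 leaving out 1 library. For the interaction there were 374, and 1022 with DESeq2, 238 with no filter, 2342 and 4236 with GC offsets, and 136 to 2259 leaving out 1 library.

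Carboxypeptidase list genes called for T3 in TRB cells numbered 3, and 0 with the compared groups alone, 9 and 10 with GC offsets on 12 and 11 libraries, and 1 to 6 leaving out 1 library. For T3 in EV cells there were 0, and 1 with DESeq2, 1 with the compared groups alone, 3 and 4 with GC offsets, and 0 to 2 leaving out 1. For TRB in vehicle there were 0, and 1 with the compared groups alone. For TRB with T3 there was 1, and 0 with limma-voom, no filter or the compared groups alone, 3 and 5 with GC offsets, and 0 to 2 leaving out 1. For the interaction there were 0, and 1 and 3 with GC offsets, and 0 to 2 leaving out 1. In the main fit the shares of all genes called were 14.7% for T3 in TRB cells and 0.229% for T3 in EV cells. They were 0.0208% for TRB in vehicle, 6.68% for TRB with T3 and 2.59% for the interaction. Calls over all genes moved with the same settings, from 634 to 6895 for T3 in TRB cells. The list counts are thus not a result about carboxypeptidases.

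Same-numbered libraries did not deviate together in every pair (correlations from -0.19 to 0.728), and 7 of 12 libraries correlated best with their own number. With the replicate block CPM in EV cells changed by 2.56 (edgeR adjusted p 0.0769) and CPD in TRB cells by 1.21 (adjusted p 0.00932), and no call of either changed.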

Other observations

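KNG1, the gene of the kininogen from which bradykinin is cut, had too few counts to pass the filter and was chosen after its values were seen. It held 8, 4 and 8 counts in TRB with T3, 1, 0 and 0 in TRB with vehicle, 2, 1 and 0 in EV with vehicle and 1, 3 and 0 in EV with T3. All libraries of TRB with T3 lay above the others, at 0.6 to 0.999 cpm against at most 0.434. Among genes tested, which leave out KNG1, groups did not overlap in 40.8% for T3 in TRB cells. They did not overlap in 26.3% for TRB against EV with T3.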
